A study of Rattus norvegicus with 12 samples.

Results

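Gata4, Gata6, Tbx2, Tbx3, Tbx20, Hand2, Foxf1, Twist1, Prrx1 and Tcf21 are 10 transcription factors that pattern mesenchyme, heart and vessel wall in the embryo, and their RNA was followed by symbol in every library of a rat vascular smooth muscle RNA-Seq series. All 10 had a row among the 33294 genes of the count table. Of them 8 had counts and were tested in each comparison, and Tbx20 and Tcf21 were at 0 counts in all 12 libraries. The cells were PAC1, a single rat pulmonary artery smooth muscle line that can be kept in a more differentiated state (PAC1-D, split weekly at a 1:10 dilution) or a more proliferative state (PAC1-P, split 2 times a week at 1:20). The 4 groups of 3 libraries were PAC1-D cells with control siRNA (D1), PAC1-P cells with control siRNA (P), PAC1-D cells with siRNA against the splicing regulator Rbpms (RBPMS KD1), and PAC1-D cells with siRNAs against the splicing regulators Mbnl1 and Mbnl2 (MBNL KD). Every group, controls included, thus received siRNA, and the labels give 90 pmol per transfection of 200000 cells, a repeat transfection after 24 h and lysis 48 h later. The study gives later times, both in its methods and in its figure legend for this experiment. Its methods also give other seeding numbers, which differ between PAC1-D and PAC1-P cells. Which of these apply to the libraries is not settled. The comparisons asked how the factors differ between the culture states and whether losing either splicing regulator moves them. Replicates are described as biological repeats of this 1 line, and the p-values below measure only the spread between these libraries.

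GATA factors bind the GATA core and are known for their parts in endoderm, heart and smooth muscle, and GATA6 is the member best known from differentiated vascular smooth muscle. TBX2 and TBX3 are closely related T-box repressors of the developing heart, lung and limb, TBX20 is a cardiac T-box factor, and HAND2, TWIST1 and TCF21 are basic helix-loop-helix (bHLH) proteins that pair with the E proteins TCF3, TCF4 and TCF12 to bind E-boxes and are held back by the ID proteins, which lack a DNA-binding region. FOXF1 is a forkhead factor of splanchnic and lung mesenchyme, PRRX1 is a paired-related homeodomain factor of limb and craniofacial mesenchyme, and TCF21 marks epicardium and adventitial or cardiac fibroblasts.

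The starts of 4 factors are shown because they differ in what the data found there: Hand2 fell in P cells, Twist1 and Prrx1 rose, and Tcf21 had no counts. A RefSeq promoter table on build GRCr8 held 6 of the 10 factors, namely Gata6, Tbx20, Hand2, Twist1, Prrx1 and Tcf21. The counts themselves were made on build mRatBN7.2, so the coordinates serve only to place the sequence. Each line gives the 250 bases before the annotated start, read 5′ to 3′ on the strand of the gene, for Hand2 at chr16:37931489-37931738 (minus strand), Twist1 at chr6:56402059-56402308 (plus strand), Prrx1 at chr13:78204074-78204323 (minus strand) and Tcf21 at chr1:24520249-24520498 (plus strand). Capitals mark E-box letters (CANNTG) and the GATA letters GATAA, each searched on both strands.
Hand2: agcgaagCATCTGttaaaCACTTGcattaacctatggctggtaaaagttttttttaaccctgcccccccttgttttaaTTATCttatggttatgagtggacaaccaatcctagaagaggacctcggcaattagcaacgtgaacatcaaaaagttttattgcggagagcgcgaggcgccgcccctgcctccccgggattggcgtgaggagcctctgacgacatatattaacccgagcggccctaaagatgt
Twist1: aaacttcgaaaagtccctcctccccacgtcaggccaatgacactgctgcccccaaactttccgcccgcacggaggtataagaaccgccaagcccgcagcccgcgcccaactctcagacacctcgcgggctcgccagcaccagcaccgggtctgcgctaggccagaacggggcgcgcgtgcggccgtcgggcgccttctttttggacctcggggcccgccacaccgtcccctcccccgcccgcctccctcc
Prrx1: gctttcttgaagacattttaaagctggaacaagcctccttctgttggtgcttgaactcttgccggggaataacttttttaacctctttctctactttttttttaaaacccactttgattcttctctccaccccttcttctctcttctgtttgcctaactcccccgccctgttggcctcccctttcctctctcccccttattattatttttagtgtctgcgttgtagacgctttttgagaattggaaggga
Tcf21: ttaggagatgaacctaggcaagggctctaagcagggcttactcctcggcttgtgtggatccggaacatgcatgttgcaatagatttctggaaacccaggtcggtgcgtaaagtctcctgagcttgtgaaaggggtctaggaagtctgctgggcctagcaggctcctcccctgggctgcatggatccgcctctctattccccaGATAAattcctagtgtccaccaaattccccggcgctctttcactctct

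The Hand2 window held 2 E-boxes and 1 GATAA, the latter on the opposite strand, and none of these matches overlapped another. Tcf21 held 1 GATAA and no E-box, and neither pattern was found in the windows of Twist1 and Prrx1. Among the 33469 RefSeq promoters of the same length, 65.5% held an E-box and 23.5% held GATAA, so both are common and a match is a description only. CpG dinucleotides stood at 0.98 of the number that base composition gives in Twist1 and 0.90 in Hand2, against 0.38 in Prrx1, 0.39 in Tcf21 and a median of 0.38 over all promoters. G and C made up 69.2% of the Twist1 window and 43.2% of the Prrx1 window, where the median was 51.2%. Of the factors that rose in P cells, Twist1 thus had a CpG-rich start and Prrx1 one near the median of all promoters.

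Counts summed to between 80842635 and 90771289 per library, and the lowest total was that of MBNL KD replicate 3, which also stood farther from its group mates (chi-square per degree of freedom 12.8 against each) than any other pair did (3.68 to 7.70). Rbpms fell from 150.1 ± 7.90 CPM (counts scaled to library size and by the trimmed mean of M values, TMM; SD, n = 3) in D1 to 37.5 ± 0.703 in RBPMS KD1. Mbnl1 fell from 346.7 ± 5.15 to 82.5 ± 1.07 CPM and Mbnl2 from 180.1 ± 1.94 to 53.4 ± 0.923 CPM in MBNL KD. All 8 smooth muscle markers were detected in every group, and their summed level was 9803 to 10304 CPM in D1, 210.8 to 224 CPM in P, 4886 to 5060 CPM in RBPMS KD1 and 7828 to 7944 CPM in MBNL KD. Acta2 and Tagln made up most of the sum in D1 and both knockdowns but not in P, and in MBNL KD 6 markers were lower on adjusted p while Myh11 (51.4 CPM in D1 and 74.5 CPM in MBNL KD) and Cnn1 (19.2 and 20.8 CPM) were higher. Among counts up to 20, even values were 2.35 to 2.69 times as frequent as the odd values beside them, so counts moved largely in steps of 2 and carry fewer independent fragments than their number says.

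Between the culture states the factors parted. In P cells Gata4 rose from 8 to 16 counts a library to between 6612 and 6803, and Tbx3, Prrx1 and Twist1 were higher, while Gata6, Tbx2 and Hand2 were lower and Foxf1 did not pass the test. A gene was called where the quasi-likelihood test of edgeR gave an adjusted p (Benjamini-Hochberg, over all genes tested) under 0.05 with a change of more than 2-fold. By this rule 1 factor was called higher in P (Gata4), where 16.4% of the 16814 tested genes were, and 3 were called lower (Gata6, Tbx2 and Hand2), where 11.2% were. With quantile normalisation the called genes split into 2205 higher and 2625 lower in place of 2758 and 1883, and the 4 factors kept their calls. On the adjusted p alone 4 factors were higher and 3 lower, against 40.4% and 37.6% of tested genes. The median log2 change of the 8 tested factors was 0.23, beside 0.02 over all genes, and their median absolute log2 change was 1.05 beside 0.46. Since these libraries are bulk RNA, fewer cells of a type and less RNA per cell cannot be told apart in any of these values.

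**Figure D1:**
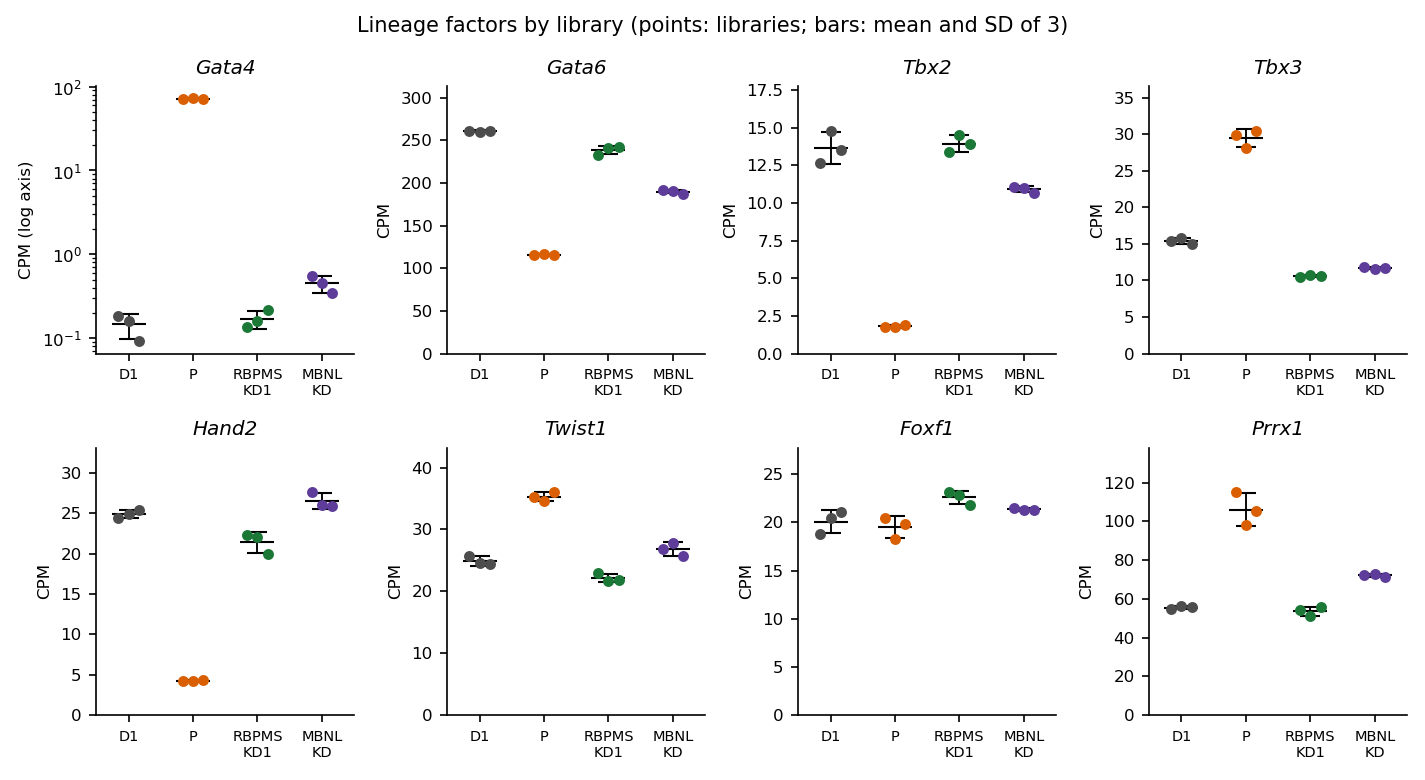
CPM (TMM-scaled counts) of the 8 detected factors in the 12 libraries, with Gata4 on a log axis and the other panels starting at 0; points are libraries, bars the mean and SD of 3. Gata4 sits above 70 CPM in the 3 P libraries and below 0.55 CPM in the other 9, while Tbx2 and Hand2 are lowest in P.

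Gata4, which drives cardiac and endodermal genes, had 16, 14 and 8 counts in the D1 libraries. The P libraries held 6612, 6803 and 6720 counts. RBPMS KD1 had 12, 14 and 19 counts and MBNL KD had 49, 41 and 28. Every P library was thus far above every other library, MBNL KD lay above D1 and RBPMS KD1 without overlap, and D1 and RBPMS KD1 overlapped. The level was 71.6 ± 1.21 CPM in P and 0.146 ± 0.0482 CPM in D1 (SD, n = 3), a log2 change of 8.92 ± 0.084 (SE; adjusted p = 2.39e-39) or 483.9-fold, and 99.1% of tested genes had a smaller or opposite log2 change. Gata4 ranked 153 of the 2758 genes called higher in P. With so few counts in D1, leaving out 1 library at a time put the log2 change between 8.67 and 9.11. Limma on the deposited normalised values, where 0 counts can read 35, put it at 7.002.

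Gata6 moved the other way. It measured 261, 260 and 261 CPM in D1, 116, 117 and 115 CPM in P, 233, 241 and 242 CPM in RBPMS KD1 and 192, 190 and 188 CPM in MBNL KD. The order D1, RBPMS KD1, MBNL KD, P had no overlap at any step. P was lower than D1 by a log2 change of -1.17 ± 0.025 (adjusted p = 2.02e-29), so Gata6 remained a well-expressed gene in proliferative cells at 116.1 ± 0.784 CPM. Within a library the ratio of Gata4 to Gata6 counts, which needs no scaling, was 0.00056 in D1, 0.616 in P, 0.00071 and 0.0024 in the RBPMS and MBNL knockdowns. Gene length enters this ratio equally in all groups unless the transcript forms differ between them, which was not examined. The ratio therefore shows the shift between groups and not which factor has more molecules.

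Tbx2 and Tbx3 also diverged. Tbx2 measured 12.6, 14.8 and 13.5 CPM in D1 and 1.74, 1.75 and 1.91 CPM in P, with 13.4, 14.5 and 13.9 CPM in RBPMS KD1 and 11.1, 11 and 10.7 CPM in MBNL KD. D1 and RBPMS KD1 overlapped, MBNL KD lay below both and P far below all. The log2 change in P was -2.93 ± 0.085 (adjusted p = 2.83e-25), or 7.60-fold lower. Tbx3, its paralog, measured 15.4, 15.9 and 14.9 CPM in D1 and 30.0, 28.2 and 30.5 CPM in P. RBPMS KD1 had 10.5, 10.8 and 10.6 CPM and MBNL KD had 11.8, 11.6 and 11.8 CPM. Both knockdowns therefore lay below D1 while P lay above it, with no overlap. Tbx3 was higher in P by a log2 change of 0.93 ± 0.046 (adjusted p = 9.14e-19), just under the 2-fold mark. The ratio of Tbx2 to Tbx3 counts fell from 0.886 ± 0.059 in D1 to 0.061 ± 0.0025 in P (SD, n = 3), and was 1.31 ± 0.038 in RBPMS KD1 and 0.930 ± 0.021 in MBNL KD.

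**Figure D2:**
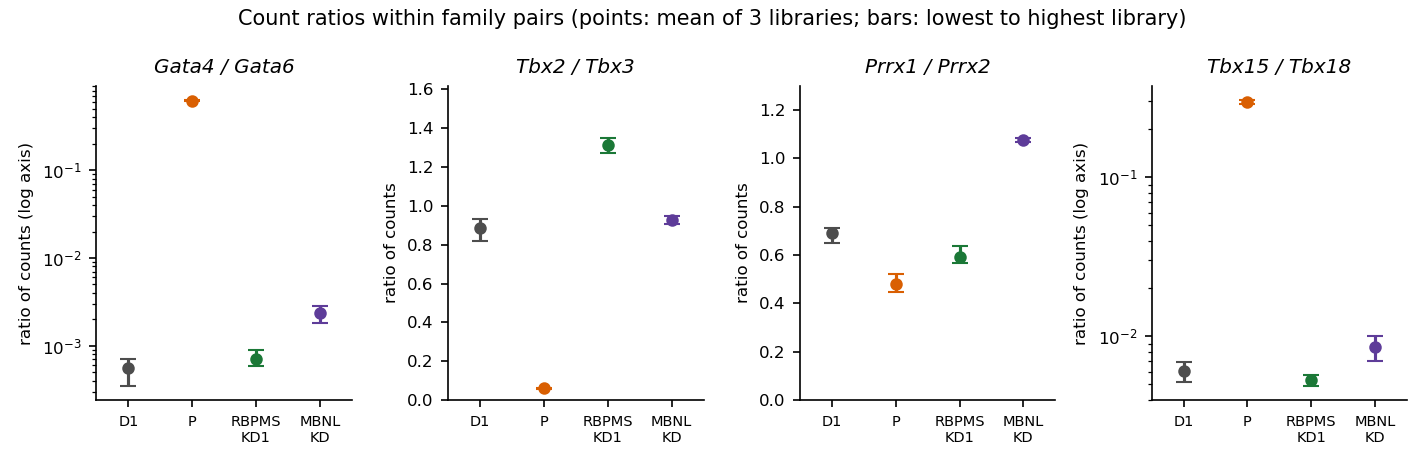
Ratio of raw counts within a library for 4 pairs of related factors, by group; points are means of 3 libraries and bars run from the lowest to the highest library, with log axes for Gata4 over Gata6 and Tbx15 over Tbx18. P does not overlap another group in any pair, but for Prrx1 over Prrx2 it lies just below RBPMS KD1 (0.446 to 0.524 against 0.568 to 0.638) and MBNL KD is the group farthest from the rest.

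Among the bHLH factors, Hand2 and Twist1 moved apart as well. Hand2, a factor of second heart field and limb mesenchyme, measured 24.4, 25.0 and 25.4 CPM in D1, 4.17, 4.23 and 4.39 CPM in P, 22.3, 22 and 19.9 CPM in RBPMS KD1 and 27.6, 26.0 and 26.0 CPM in MBNL KD. The groups followed the order MBNL KD, D1, RBPMS KD1, P without overlap. P was lower by a log2 change of -2.55 ± 0.059 (5.86-fold; adjusted p = 2.73e-28). Twist1, known for mesenchymal and neural crest development, measured 25.8, 24.6 and 24.4 CPM in D1 and 35.2, 34.6 and 36.0 CPM in P, and was higher in P by 0.50 ± 0.040 (1.41-fold; adjusted p = 3.47e-13). Its RBPMS KD1 values of 22.9, 21.7 and 21.9 CPM lay below D1, and its MBNL KD values of 26.8, 27.9 and 25.7 CPM overlapped D1. The ratio of Hand2 to Twist1 counts was 1.00 in D1, 0.967 in RBPMS KD1 and 0.991 in MBNL KD, and 0.121 in P.

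Prrx1 and Foxf1 complete the detected set. Prrx1 measured 54.7, 56.3 and 55.5 CPM in D1, 115, 98.0 and 105 CPM in P, 54.2, 50.9 and 55.6 CPM in RBPMS KD1 and 72.4, 72.8 and 71.2 CPM in MBNL KD. P was highest and MBNL KD next, both clear of D1, while RBPMS KD1 overlapped D1. Prrx1 rose 1.91-fold in P (log2 change 0.93 ± 0.037, adjusted p = 2.89e-21). Foxf1 was the flattest of the 8 in this comparison, at 18.8, 20.5 and 21 CPM in D1 and 20.4, 18.3 and 19.8 CPM in P, with a log2 change of -0.05 ± 0.051 (adjusted p = 0.415). Its RBPMS KD1 values were 23.2, 22.8 and 21.8 CPM and its MBNL KD values 21.5, 21.3 and 21.2 CPM, both just above the highest D1 library.

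Tbx20 and Tcf21 had no count in any library. A count of 0 allows up to 3 counts, which is 0.0319 to 0.0370 CPM depending on the library, if every count is an independent fragment. For counts that move in steps of 2 the limit is 6 counts, or 0.0637 to 0.0740 CPM, and no level above that was seen in any state or knockdown.

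**Figure D3:**
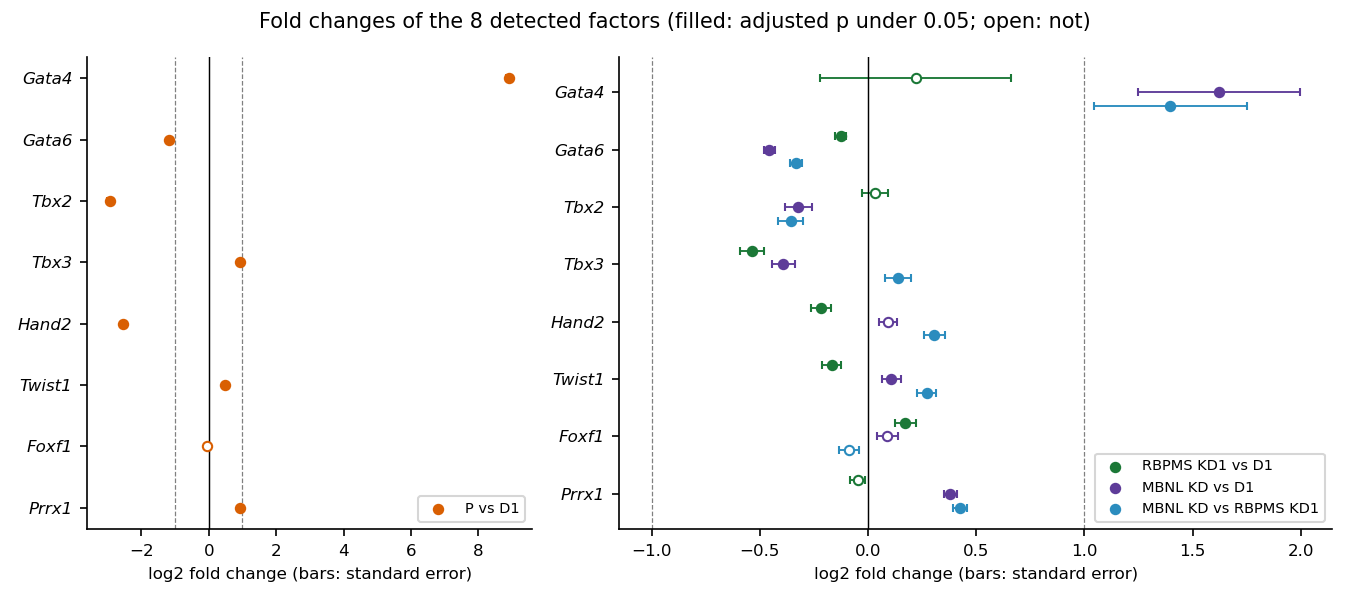
Log2 fold changes of the 8 detected factors with standard errors, P against D1 on the left and the 3 knockdown comparisons on the right on a narrower axis; filled points have an adjusted p under 0.05 and dashed lines mark a 2-fold change. In P, Gata4, Tbx2, Hand2 and Gata6 lie beyond the lines, and in the knockdown panel only Gata4 does, in both MBNL KD comparisons.

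RBPMS knockdown lowered Tbx3, Hand2, Twist1 and Gata6 and raised Foxf1, all by less than 2-fold. No factor was called at more than 2-fold, where 4.68% of the 15904 tested genes were called in either direction (487 higher and 258 lower, or 361 and 310 with quantile normalisation), and on adjusted p alone 1 factor was higher and 4 were lower, beside 29.5% of genes higher and 29.5% lower. Tbx3 had the largest change, lower by a log2 change of -0.54 ± 0.055 (adjusted p = 1.74e-09), which is opposite in sign to its change in P. Hand2 (-0.22 ± 0.047, adjusted p = 0.00023), Twist1 (-0.17 ± 0.044, adjusted p = 0.0018) and Gata6 (-0.13 ± 0.025, adjusted p = 6.25e-05) were also lower. Foxf1 was higher by 0.17 ± 0.049 (adjusted p = 0.0033). Values for the rest were 0.22 ± 0.441 for Gata4 (adjusted p = 0.695), 0.03 ± 0.060 for Tbx2 (adjusted p = 0.684) and -0.05 ± 0.035 for Prrx1 (adjusted p = 0.239). The median log2 change of the 8 was -0.09, beside 0.00 over all genes. The P and both knockdown comparisons share the D1 libraries, so their values are given side by side and likeness between them is not read as a result.

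MBNL knockdown raised Gata4 and Prrx1 and lowered Gata6, Tbx3 and Tbx2. Gata4 alone was called at more than 2-fold higher, where 6.10% of the 16053 tested genes were, and on adjusted p alone 3 factors were higher and 3 lower, beside 33.8% and 33.7% of genes. The Gata4 change was 1.62 ± 0.374 on the log2 scale (3.08-fold, adjusted p = 0.00034), from 0.146 ± 0.0482 CPM in D1 to 0.450 ± 0.102 CPM, which is 452 in rank among the 979 genes called higher and remains far below the level in P. This call rests on 38 counts in all of D1 and 118 in all of MBNL KD, and was not made by limma on the deposited normalised values, where the log2 change was 0.58, nor with a minimum of 10 counts in every library, where Gata4 was not tested. The normalised values have a floor, and the noncoding RNA LOC108351663 read 35 at 0 counts in MBNL KD. Gata4 read 44.7 to 54 in D1 on that scale, so folds between low counts come out smaller there. Prrx1 was higher by 0.38 ± 0.029 (adjusted p = 8.12e-13), and Gata6 (-0.46 ± 0.024, adjusted p = 2.12e-16), Tbx3 (-0.39 ± 0.054, adjusted p = 2.27e-07) and Tbx2 (-0.32 ± 0.061, adjusted p = 3.32e-05) were lower. Twist1 was higher by 0.11 ± 0.044 (adjusted p = 0.031), which no longer passed without D1 replicate 2 (adjusted p = 0.11) or 3 (0.127), without MBNL KD replicate 1 (0.0646) or 2 (0.172), and with no filter (0.0553). Hand2 (0.09 ± 0.043, adjusted p = 0.056) and Foxf1 (0.09 ± 0.048, adjusted p = 0.107) did not pass, though both passed with quantile normalisation (0.17 and 0.14, adjusted p = 0.0013 and 0.0101) and by limma on the normalised values, and Hand2 also passed without MBNL KD replicate 3 (adjusted p = 0.0456) and with the 10-count minimum (0.0333). Without the replicate that stood apart, MBNL KD replicate 3, the Gata4 change was 1.78 and that of Prrx1 0.39. The median log2 change of the 8 was 0.09, beside 0.01 over all genes.

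Setting MBNL KD directly against RBPMS KD1, which uses no control library, gave 1 factor called higher (Gata4) where 5.88% of 16111 genes were, and 5 higher and 2 lower on adjusted p alone, beside 35.1% and 34.5% of genes. Gata4 was higher in MBNL KD by 1.40 ± 0.354 (adjusted p = 0.00088), and was not called by limma on the normalised values. Prrx1 (0.42 ± 0.033, adjusted p = 9.79e-13), Hand2 (0.31 ± 0.048, adjusted p = 1.84e-06) and Twist1 (0.27 ± 0.046, adjusted p = 4.96e-06) were higher too. Tbx3 was higher by 0.14 ± 0.059 (adjusted p = 0.038), which no longer passed with DESeq2 (adjusted p = 0.0585), with no filter (0.0854) and without each library in turn (0.0857 to 0.12). Gata6 (-0.33 ± 0.026, adjusted p = 1.55e-12) and Tbx2 (-0.36 ± 0.058, adjusted p = 3.09e-06) were lower in MBNL KD. Foxf1 differed by -0.09 ± 0.046 (adjusted p = 0.0915), and passed only without RBPMS KD1 replicate 3 (-0.13, adjusted p = 0.0291). The median log2 change of the 8 was 0.20, beside 0.01 over all genes.

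Relatives of the factors were followed from 5 family lists of 50 genes, of which 28 were tested in P against D1. Of these 17 were higher and 9 lower on adjusted p, with 8 and 7 of them past 2-fold, and the list median was 0.43 beside 0.02 over all genes. Among all tested genes 40.4% were higher and 37.6% lower on adjusted p, and 16.4% and 11.2% past 2-fold. Gata2, Foxd1, Mesp2 and Pitx1 passed the filter for low counts through the P libraries alone, so they could not have been counted as lower. The number of higher relatives and the list median rest partly on them. In the GATA family Gata2, a haematopoietic and endothelial factor, rose from 0 to 6 counts a library in D1 to 95 to 152 in P, and Gata5 was at 0 throughout. In the T-box family 5 of 8 tested relatives were called lower and 1 higher, beside 11.2% and 16.4% of all tested genes. Tbx18, a factor of epicardium and mural cells, fell from 198.2 ± 6.88 to 69.6 ± 1.43 CPM (log2 change -1.51 ± 0.029, adjusted p = 9.35e-31). Tbx15, its close relative, rose from 1.19 ± 0.141 to 20.8 ± 0.357 CPM (4.12 ± 0.081, adjusted p = 2.80e-30), and the ratio of Tbx15 to Tbx18 counts went from 0.0060 to 0.298. Tbx5 was at 0 in all libraries.

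**Figure D4:**
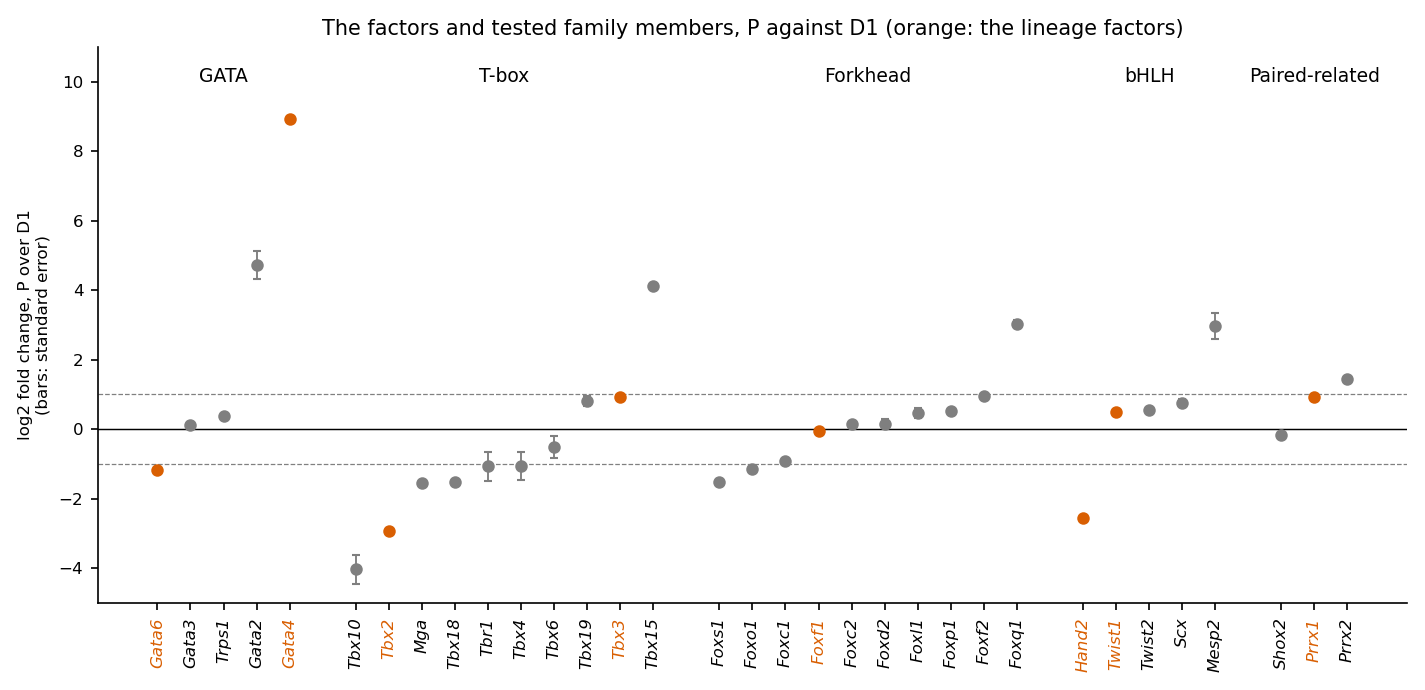
Log2 fold change of P over D1, with standard errors, for the lineage factors (orange) and the tested relatives reported here (grey), grouped by family and ordered by value; dashed lines mark 2-fold, and Foxd1 and Pitx1, at 0 in D1, are not drawn. The paired-related and bHLH relatives lie mostly above 0, and the T-box family spreads on both sides of it. Gata2 and Mesp2 passed the filter for low counts through the P libraries alone.

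In the paired-related family Prrx2, the paralog of Prrx1, rose with it in P from 80.6 ± 3.37 to 220.7 ± 1.58 CPM (log2 change 1.45 ± 0.028, adjusted p = 2.22e-30). In MBNL KD the paralogs parted, Prrx1 rising as above and Prrx2 falling to 67.0 ± 1.11 CPM (-0.26 ± 0.030, adjusted p = 6.22e-09), so the Prrx1 to Prrx2 count ratio was 1.08 ± 0.0075 there (SD, n = 3), against 0.690 ± 0.036 in D1, 0.481 ± 0.039 in P and 0.592 ± 0.040 with RBPMS knockdown. Pitx1, a hindlimb factor, went from 0 in every D1 library to 70 to 81 counts. Of the bHLH relatives, 3 were tested in P and all were higher, where 40.4% of all tested genes were. Twist2 stood at a log2 change of 0.54 ± 0.052, Scx, a tendon factor, at 0.77 ± 0.089 and Mesp2 at 2.97 ± 0.365. Mesp2, with 6 to 10 counts in D1 and 62 to 64 in P, was tested only through its P counts. Among forkhead genes Foxf2, the paralog of Foxf1, was higher by 0.96 ± 0.052 (adjusted p = 1.0e-17) where Foxf1 was flat, Foxq1 rose by 3.03 ± 0.125 and Foxs1 fell by 1.52 on the log2 scale. In the knockdowns 24 relatives were tested, and in RBPMS KD1 6 were higher and 9 lower, in MBNL KD 4 higher and 10 lower, with 1 called past 2-fold in either (Tbx6 in RBPMS KD1, 1.01 ± 0.239). On adjusted p 29.5% of all tested genes were higher and 29.5% lower in RBPMS KD1, where 4.68% were called past 2-fold. The shares in MBNL KD were 33.8% and 33.7%, and 10.2% were called past 2-fold in either direction.

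Of 15 partner proteins 6 were higher and 9 lower in P on adjusted p, beside 40.4% and 37.6% of all tested genes. The share that was higher is that of genes at large, and the share that was lower is above it. Past 2-fold 3 were called higher and 3 lower, beside 16.4% and 11.2% of tested genes. Id1, Id2 and Id3, the inhibitors of bHLH pairing, rose from 4.98, 5.05 and 62.6 CPM in D1 to 37.2, 58.4 and 317 CPM in P. Id4, the fourth inhibitor, fell from 131.5 ± 2.26 to 26.4 ± 1.43 CPM. In MBNL KD the same 3 inhibitors rose to 32.0, 14.3 and 138.3 CPM (log2 changes 2.68 ± 0.058, 1.50 ± 0.070 and 1.15 ± 0.029), and were the 3 partners called higher there, where 6.10% of tested genes were. RBPMS KD1 held 8.76, 4.30 and 72.5 CPM of Id1, Id2 and Id3. Of the E proteins in P, Tcf3 (-0.47 ± 0.030) and Tcf4 (-0.29 ± 0.039) were lower and Tcf12 (0.24 ± 0.027) was higher. The GATA cofactor Zfpm2 (FOG2) fell from 124.1 ± 3.20 to 55.3 ± 1.23 CPM in P, and the cardiac factor Nkx2-5 was low everywhere, at 24 to 36 counts in D1, 2 to 4 in P, 10 to 32 in RBPMS KD1 and 40 to 58 in MBNL KD.

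Other lineage factors numbered 27, of which 21 were tested in P, with 8 higher, 7 lower and 6 not past the test, and a list median of 0.06. On adjusted p these shares are near those of all tested genes (40.4% and 37.6%), while past 2-fold 7 were called higher and 6 lower, beside 16.4% and 11.2%. The higher ones included Sox9, a cartilage factor (log2 change 2.13 ± 0.069), and Runx1 (1.96 ± 0.047), and Mkx and Isl1 went from 0 in D1 to 81 to 129 and 41 to 60 counts. Mkx and Isl1 are among the 7 but passed the filter for low counts through P alone, so they could not have been counted as lower. The lower ones included Snai2 (-2.72 ± 0.048), Ebf1 (-2.74 ± 0.072) and Osr1 (-1.31 ± 0.029). Genes often given as targets of these factors in textbooks numbered 14, of which 11 were tested in P, with 5 higher and 5 lower on adjusted p, 3 and 3 of them past 2-fold (again beside 16.4% and 11.2%), and a list median of -0.27. Postn rose (2.62 ± 0.043) and so did the connexin gene Gja1 (1.61 ± 0.025), while Cdkn1a (-1.84 ± 0.027) and Tnc (-1.48 ± 0.025) fell. In MBNL KD 10 of 12 tested targets were higher and 1 lower, beside 33.8% and 33.7% of all tested genes (median 0.70 beside 0.01), led by the connexin gene Gja5, from 14 to 22 counts in D1 to 263 to 343 (4.05 ± 0.190), and by Nppb (2.69 ± 0.444) and Postn (2.31 ± 0.041). Nppb, with 2 to 8 counts in D1 and 32 to 42 in MBNL KD, passed the filter for low counts through MBNL KD alone. In RBPMS KD1 7 of 11 were higher and none of the list lower, beside 29.5% and 29.5% (median 0.39 beside 0.00), with Postn at 1.24 ± 0.048. Under DESeq2 size factors and quantile normalisation every list gene past the test kept its sign, except Foxp1 (-0.09 in MBNL KD) and Id4 (-0.06), which stood at 0.01 and 0.02 with quantile normalisation. These lists were chosen with earlier results of these data known, and direct binding was not measured.

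Markers of other cell types were counted beside these results. The 6 cardiomyocyte markers summed to 5.03 to 5.55 CPM in D1, 8.51 to 9.79 CPM in P, 3.38 to 3.73 CPM in RBPMS KD1 and 14.9 to 17.0 CPM in MBNL KD, with Myh6 at 0 in D1 and RBPMS KD1 and Actn2 at 0 in D1. The sum in P was carried by Tnni3 (0.906 CPM in D1 and 7.36 CPM in P), while Tnnt2 (2.85 and 1.51 CPM) and Ryr2 (1.23 and 0.220 CPM) were lower, and the median log2 change of the 4 tested markers was -0.56. In MBNL KD 3 of the 4 were called higher, beside 6.10% of tested genes, with Tnnt2 at 8.66 CPM, Ryr2 at 3.48 CPM and Mybpc3 at 2.80 CPM (0.238 CPM in D1), and the median was 1.56. The 6 endothelial markers summed to 0.746 to 0.816 CPM in D1 and 5.43 to 6.76 CPM in P, 1.82 to 1.84 CPM in RBPMS KD1 and 0.937 to 1.41 CPM in MBNL KD, with Cdh5 and Kdr at 0 outside P and Emcn at 0 everywhere. The 6 fibroblast markers were all detected and summed to 275.1 to 291 CPM in D1, 313.1 to 339.7 CPM in P, 329.4 to 340.8 CPM in RBPMS KD1 and 404.5 to 416.5 CPM in MBNL KD. In MBNL KD the sum was carried by Col15a1 (127 CPM in D1 and 312 CPM in MBNL KD), while Lum (131 and 83.6 CPM), Dcn (12.9 and 5.45 CPM) and Dpt (0.384 and 0.0918 CPM) were lower, and the list median was -0.39. Macrophage markers summed to 48.8 to 86.8 CPM over all groups, of which Cd14 alone made up 48.7 to 84.9 CPM by group mean, with each of the others under 1 CPM and Itgam at 0 outside P. Neural crest and glial markers summed to 1.74 to 3.62 CPM with Foxd3 at 0, and epithelial markers to at most 0.278 CPM with Esrp1 at 0. The part of other cell types in the changes of the factors was not tested.

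The chromosomal neighbours of the factors were taken by gene order from RefSeq. A long noncoding RNA that overlaps Gata4, LOC102548615, had 0 counts in D1 and RBPMS KD1, 24 to 49 in P and at most 2 in MBNL KD. Its neighbour Neil2, a DNA repair gene, likewise went from 0 in D1 to 25 to 50 counts in P. The setting for strand in counting is not given in the sources used here, so reads of overlapping genes cannot be told apart. LOC100909782, a noncoding RNA beside Gata6, was lower in P (8.01 CPM against 16.4 CPM in D1, log2 change -1.04 ± 0.059) and in MBNL KD (-0.87 ± 0.057), and higher in RBPMS KD1 (0.20 ± 0.049). LOC103693946, beside Hand2, fell in P (-1.26 ± 0.201), and Fendrr, the noncoding RNA beside Foxf1, fell in P (-0.59 ± 0.101, adjusted p = 3.64e-06) and rose in RBPMS KD1 (0.58 ± 0.083, adjusted p = 7.58e-07). Of the protein-coding neighbours in P, Bcas3 beside Tbx2 was higher (29.0 CPM against 23.2 CPM in D1, log2 change 0.32 ± 0.041), Mthfsd beside Foxf1 was higher (0.35 ± 0.065), and Gorab beside Prrx1 did not pass (-0.09 ± 0.041, adjusted p = 0.0535). In RBPMS KD1 Gorab fell (-0.72 ± 0.046), where Prrx1 did not pass. Tbx4 beside Tbx2 had few counts, 17 to 25 in D1, 10 to 14 in P, 8 to 14 in RBPMS KD1 and 10 to 16 in MBNL KD, and was called lower in P (-1.07 ± 0.409, adjusted p = 0.0189).

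Likeness of pattern was measured as Pearson's r over the 12 libraries on log2(CPM + 0.5) among 12813 genes with a mean of at least 1 CPM, as a description in which all points share the 4 groups. Near to Gata4 were Nkd1, a Wnt pathway inhibitor, and Piwil2, a germline piRNA protein, both with r = 0.999, and 1021 genes had r over 0.95. Nearest to Gata6 were Aldh2, Arhgap23 and Thra (r = 0.998). Nearest to Tbx2 were Bcam, Rhobtb1 and Pde3a (r = 0.998), and nearest to Tbx3 were Epb41l2 (r = 0.998), Slk and Fkbp4 (both r = 0.996). Hand2 lay nearest to Filip1l (r = 0.999), Jph2, a junction protein of muscle, and Akap2 (both r = 0.998). Twist1 lay nearest to Lonp1 (r = 0.994), Csnk2a2 (r = 0.993) and LOC108349973 (r = 0.991), and Prrx1 to Id2 (r = 0.992), Ythdc1 (r = 0.990) and Sgms2 (r = 0.989). Foxf1, whose groups barely separate, had no gene with r over 0.95, and its nearest were Rpl28 (r = 0.908), LOC100362339 (r = 0.907) and Snrnp35 (r = 0.906). Between the factors themselves r ran from -0.997 for Gata4 with Tbx2 to 0.975 for Tbx2 with Hand2.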

How the data were processed

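Poly(A) RNA libraries from a directional kit were sequenced in pairs of reads for 12 libraries of 1 cell line, 3 in each of 4 groups taken from the sample titles. The authors brought every library to the same number of reads before alignment with STAR 2.7.11b to build mRatBN7.2 and made gene counts with featureCounts, so the reads entering alignment were equal in number, while the counted totals still differ. The settings for strand and for mate pairs are not given in the sources used here. The deposited count table holds raw counts per gene symbol. The deposited normalised table is used as signal, which the authors made by noise correction and quantile normalisation across libraries, and it held 8 of the 10 factors. No sample column was left unused, and other tables of the study were not analysed here.

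Members and gene lists were chosen with earlier results of these data known. All 10 factors were named, genes of the fixed lists after their list counts, the 3 genes most like each factor, and adjacent or overlapping genes. A few list or pattern genes are not reported here, though they stay in the list counts. Counts were tested with edgeR 4.0.16 (TMM, filterByExpr, quasi-likelihood F test, R 4.3.3) in each comparison's own 6 libraries, over all genes passing the filter, and a call needed an adjusted p under 0.05 and more than 2-fold. With 3 libraries against 3 an exact permutation test cannot go below p = 0.1, so gene-wise p-values rest on the spread shared across genes. The fitting code was checked on simulated counts, as a check of the code only. Alternatives were DESeq2 1.42.0 (size factors, Wald test), quantile normalisation, other filters, limma 3.58.1 on the log2 of the signal with no pseudocount, 1 fit of all libraries, a replicate block and leaving out each library. Replicates were not duplicates, and the typical variation between them was 2.88% to 3.43%. A count of 0 allows up to 3 counts, a limit that covers counting error only and treats counts as independent (6 for counts in steps of 2).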

Additional observations from a re-analysis of the deposited data

How the results depend on the processing

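Of the 445 recomputed log2 changes of single factors, 423 kept their direction and their side of an adjusted p of 0.05, whatever the fold, 13 no longer passed, 7 newly passed and 2 changed sign. The 2 sign changes were in RBPMS KD1 against D1, neither past the test: Tbx2 stood at -0.024 without D1 replicate 1 and 0.091 without D1 replicate 2, and Gata4 stood at -0.025 without D1 replicate 3 and 0.417 without D1 replicate 1. The adjusted p-values that no longer passed were those of Twist1 in MBNL KD and Tbx3 between the knockdowns, neither of them past 2-fold. By limma on the normalised values no factor was called (0) in MBNL KD against D1 or against RBPMS KD1, and the genes called numbered 209 in RBPMS KD1 and 784 in MBNL KD against D1 and 1050 between the knockdowns, in place of 745, 1643 and 1920. Requiring 10 counts in every library, which removes genes that are low in 1 group, left 2933 genes called in P in place of 4641, 3 factors in place of 4 there, and 0 factors in MBNL KD, since Gata4 was no longer tested. Leaving out 1 library at a time gave 4757 to 4831 genes called in P, 739 to 783 in RBPMS KD1, 1657 to 1728 in MBNL KD and 1945 to 2002 between the knockdowns, and the count of factors called did not move (4, 0, 1 and 1). Same-numbered replicates did not deviate together (correlations of deviations between -0.022 and 0.020), so the numbers give no pairing. A fit with a replicate block called 4593 genes in P, 730 in RBPMS KD1, 1634 in MBNL KD and 1915 between the knockdowns, with 4, 0, 1 and 1 factors, and changed no call of a factor. With quantile normalisation 4 of the 86 list genes that passed in P no longer did (Gata3, Foxl1, Nkx2-3 and Six2), 2 of 63 in RBPMS KD1 and 8 of 68 in MBNL KD. The cause of these shifts was not tested. Gata4 in D1 and in the knockdowns rests on 8 to 49 counts a library, so its folds there are the least precise, and changes below the 2-fold mark in the other factors rest on the small spread between libraries.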
